A study of Danio rerio with 12 samples.

Results

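The REV-ERB and ROR nuclear receptors were followed in zebrafish skeletal muscle after a fast and during refeeding. They are 10 of the 25281 genes in the deposited table, found by gene symbol: the REV-ERB genes nr1d1, nr1d2a, nr1d2b, nr1d4a and nr1d4b, and the ROR genes roraa, rorab, rorb, rorca and rorcb. The study compared wild-type zebrafish (strain not applicable and age 2-3 month by the labels, although the study's methods have them older than that, since they were acclimated after purchase) without food for 24 h (Fast) with fish that had the same fast and were then refed and sampled 3 h (Refed_3h) or 8 h (Refed_8h) later. A group was made up of 4 separate fish (by the study's methods 2 of each sex, with no record of the sex of a library). From each fish a piece of muscle lying between anus and tail fin gave 1 library of poly(A) RNA. No group was sampled without a fast, and each group was sampled at 1 time only, so refeeding and time of day cannot be told apart in any difference given here.

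Both families are ligand-regulated transcription factors of the circadian clock, known mainly from mammals. REV-ERB proteins bind heme and repress transcription by recruiting the NCoR corepressor with the histone deacetylase HDAC3. ROR proteins activate transcription from the same DNA element, the ROR element, which lies in clock genes such as Bmal1 (arntl1a and arntl1b in zebrafish) and Nfil3. The REV-ERB genes are themselves driven by CLOCK and BMAL1 through E-boxes, which closes a loop of the clock. In mouse skeletal muscle, Rev-erb alpha is known for its effect on mitochondrial content and autophagy.

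Counts assigned to genes summed to 11929140 to 15810710 per library in Fast, 15037143 to 17467497 in Refed_3h and 15211830 to 18446239 in Refed_8h. Of all genes, 16745 passed edgeR's filter on low counts and were tested, among them 9 of the 10 receptors. The exception was rorb. Levels are given as the authors' TPM (a level relative to transcript length, scaled to the same total in each library). Differences are log2 fold changes of the counts from edgeR's quasi-likelihood test with their standard errors (SE), scaled by TMM, with p-values adjusted by Benjamini-Hochberg across the tested genes. A gene was called where its adjusted p was under 0.05 and its change at least 2-fold. Of 13 skeletal muscle markers, 12 were in the table, and their TPM sum per fish was 90961 to 115650 in Fast, 101759 to 135114 in Refed_3h and 101807 to 131566 in Refed_8h. Of the 12, tnnt3a was listed at 0 in 4 libraries. All 8 skin markers listed were in the table and had a TPM sum per fish of 18149 to 20205 in Fast, 10413 to 17934 in Refed_3h and 9076 to 17096 in Refed_8h. Each refed group lay below every Fast fish in that sum (exact permutation test, two-sided, p = 0.029 each, the smallest that 4 fish against 4 allow, and 0.15 after adjustment over 27 tests of marker sums). TPM was lower over the genes in general, with a median change on log2(TPM + 1) of -0.26 at 3 h and -0.08 at 8 h. From the TMM-scaled counts the median of the 8 skin markers was -0.21 at 3 h and -0.59 at 8 h. edgeR called 0 of them at either time, and 0 and 3 had an unadjusted p under 0.05. In bulk tissue, fewer cells of a type and less RNA per cell cannot be told apart.

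The summed TPM of the REV-ERB genes was lower after refeeding, while that of the ROR genes stayed in 1 range. At 3 h TPM was lower over the genes in general (median change -0.26 on log2(TPM + 1), -0.01 from the counts). The sums below carry that shift, and their ratio within a fish does not. The TPM sum of the 5 REV-ERB genes was 128 ± 37.8 in Fast, 27.2 ± 6.36 in Refed_3h and 29.9 ± 3.03 in Refed_8h (mean ± SD, n = 4 each). The highest refed fish had 33.4 TPM, against 90.1 TPM in the lowest Fast fish. The TPM sum of the 5 ROR genes was 20.9 ± 4.72 in Fast, 19.8 ± 3.86 in Refed_3h and 25.1 ± 2.99 in Refed_8h, and the groups overlapped. The ratio of the REV-ERB sum to the ROR sum was 6.74, 6.51, 6.26 and 4.77 in the Fast fish. It was 0.935, 1.87, 1.31 and 1.52 in the Refed_3h fish and 1.31, 1.20, 1.06 and 1.21 in the Refed_8h fish. Every refed fish lay under every fasted fish in this ratio, and the refed groups overlapped each other.

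Within each family the leading gene differed between the groups. nr1d2b made up 43.0% of the REV-ERB sum in Fast and 78.1% in Refed_3h, and nr1d2a led in Refed_8h with 45.5%. nr1d1 held 26.3% of the sum in Fast, 5.72% in Refed_3h and 5.01% in Refed_8h. nr1d4b held 0.582% in Fast, 0.191% in Refed_3h and 13.1% in Refed_8h. In the ROR family, rorab held 55.0% in Fast, 51.2% in Refed_3h and 16.8% in Refed_8h. rorcb held 8.46%, 16.9% and 51.6% in the same order, and so took the place of rorab as the main ROR transcript at 8 h. The shares of roraa and rorca stayed between 14.0% and 18.1% in all groups.

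**Figure D1:**
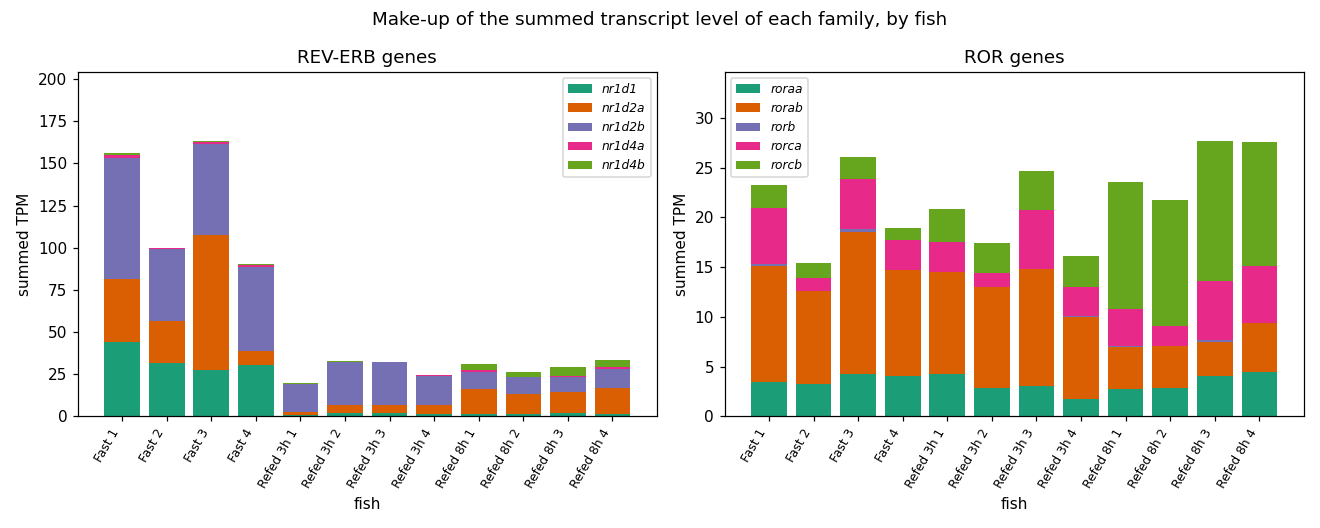
Makeup of the REV-ERB and ROR transcripts, as stacked TPM of the member genes in the fish of Fast, Refed_3h and Refed_8h (4 fish each). The mean REV-ERB total is 128 TPM in Fast, 27.2 in Refed_3h and 29.9 in Refed_8h, while in the ROR total rorab is the main gene in Fast and Refed_3h and rorcb in Refed_8h.

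nr1d1 (ENSDARG00000033160, GRCz11 chromosome 3, 23488652 to 23496223, plus strand), the zebrafish gene for REV-ERB alpha, was the member with the largest fall. It had 0.602, 2.02, 2.20 and 1.40 TPM in Refed_3h and 1.58, 1.08, 1.69 and 1.64 TPM in Refed_8h, against 44.2, 31.7, 27.6 and 30.6 TPM in Fast. Every refed fish lay far below every Fast fish, and the refed groups overlapped. In edgeR it fell by 4.08 on the log2 scale in Refed_3h (SE 0.28, adjusted p = 9.2e-06), a 16.9-fold lower level. It fell by 4.37 in Refed_8h (SE 0.29, adjusted p = 1.9e-06), which is 20.7-fold lower. By size of change it ranked 13 of 16745 genes at 3 h and 16 at 8 h. Between the refed groups its log2 fold change was -0.29 (SE 0.28, adjusted p = 0.59).

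nr1d2b (ENSDARG00000009594, chromosome 19, 17400263 to 17407115, plus strand) and nr1d2a are the zebrafish copies of REV-ERB beta. nr1d2b fell in steps. Its TPM was 72.0, 43.1, 54.4 and 50.0 in the Fast fish, 16.7, 25.8, 25.3 and 17.1 in the Refed_3h fish, and 10.2, 10.2, 8.89 and 11.3 in the Refed_8h fish. No fish of any group overlapped another group. The log2 fold change was -1.02 in Refed_3h against Fast (SE 0.15, adjusted p = 0.0024) and -2.31 in Refed_8h against Fast (SE 0.15, adjusted p = 1.9e-06, 4.96-fold lower). Refed_8h lay 2.45-fold below Refed_3h (adjusted p = 0.00032), and on the log2(TPM + 1) scale by less than 2-fold (-0.97, adjusted p = 0.014). The fall at 3 h sits at the 2-fold limit: without Fast replicate 1 the log2 fold change was -0.94, without Refed_3h replicate 1 it was -0.92 and without Refed_3h replicate 4 it was -0.99, each then under 2-fold.

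nr1d2a (ENSDARG00000003820, chromosome 16, 50089417 to 50111057, plus strand) fell at 3 h and spread widely among fasted fish. It had 1.92, 4.46, 4.53 and 5.55 TPM in Refed_3h and 14.8, 11.9, 12.5 and 15.3 TPM in Refed_8h, against 37.1, 24.6, 79.7 and 8.25 TPM in Fast. All Refed_3h fish lay below all Fast fish, whereas the Refed_8h fish lay inside the range of Fast. The fall at 3 h was 2.79 on the log2 scale (SE 0.56, adjusted p = 0.021, 6.91-fold lower). That call was lost without Fast replicate 1 (adjusted p = 0.052), Refed_3h replicate 1 (0.062) or Refed_3h replicate 3 (0.058). It was also lost in a fit of only Fast and Refed_3h (0.061) and with skin markers as a covariate (0.090). With that covariate the log2 fold change was larger in size, at -3.20, and so was its SE, at 0.73. Over all alternatives its adjusted p ranged between 8.9e-07 and 0.090. The other differences missed the threshold: -1.34 for Refed_8h against Fast (SE 0.53, adjusted p = 0.30) and 1.45 for Refed_8h against Refed_3h (SE 0.54, adjusted p = 0.14), although the refed groups did not overlap. This last difference was called with DESeq2 (adjusted p = 0.029), in a fit of those groups alone (0.022) and without Fast replicate 4 (0.049).

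The coefficient of variation of nr1d2a was 81.8% in Fast, 37.6% in Refed_3h and 12.2% in Refed_8h. Of the 5091 tested genes with a mean of at least 10 TPM in Fast, 1.36% varied more among those fish. Its paralogue nr1d2b varied by 22.5%, 23.5% and 9.72% in the same groups.

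nr1d4b (ENSDARG00000059370, chromosome 11, 1944729 to 1967438, minus strand) and nr1d4a are REV-ERB genes that mammals lack. nr1d4b fell at 3 h and rose at 8 h. Its TPM was 1.58, 0.254, 0.564 and 0.577 in the Fast fish, 0.0834, 0.0372, 0.0878 and 0 in the Refed_3h fish, and 3.20, 2.67, 5.33 and 4.43 in the Refed_8h fish. These are few reads: the counts were 33, 6, 10 and 14 in Fast, 2, 1, 2 and 0 in Refed_3h, and 76, 65, 123 and 122 in Refed_8h. No group overlapped another. The log2 fold change was -3.39 in Refed_3h against Fast (SE 0.65, adjusted p = 0.013) and 2.56 in Refed_8h against Fast (SE 0.45, adjusted p = 0.010, 5.91-fold higher). Refed_8h exceeded Refed_3h by 5.95 on the log2 scale (SE 0.61, adjusted p = 0.00018), the rank 4 change of that comparison. The value rests on the 5 counts of Refed_3h in all, and over the alternatives it ranged between 2.19 and 6.27. With the skin covariate, nr1d4b was not called in Refed_3h against Fast (log2 fold change -3.56, SE 0.80, adjusted p = 0.067). Nor was it called with that covariate in Refed_8h against Fast (log2 fold change 2.33, adjusted p = 0.23). It was also not called at 3 h on the log2(TPM + 1) scale (adjusted p = 0.076). In a fit of only Fast and Refed_3h, nr1d4b and nr1d4a did not pass the count filter and had no value. The place of nr1d4b among the tested genes thus relied, in each comparison, on its counts in Refed_8h, the group where it is highest. The 5 leukocyte markers listed, all in the table, had a TPM sum per fish of 125 to 181 in Fast, 66.7 to 111 in Refed_3h and 121 to 211 in Refed_8h, so that Refed_3h was lowest here too. The part of these cells in the values of nr1d4b was not tested.

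nr1d4a (ENSDARG00000031161, chromosome 23, 35795759 to 35821521, minus strand) passed no test. It had 0.156, 0.232, 0.164 and 0.437 TPM in Refed_3h and 0.999, 0.308, 0.973 and 0.771 TPM in Refed_8h, against 1.61, 0.476, 1.20 and 0.668 TPM in Fast. Refed_3h lay below Fast in every fish by TPM, with 21 counts in all against 66 in Fast, but the groups overlapped after TMM scaling. The log2 fold change was -1.52 in Refed_3h against Fast (SE 0.51, adjusted p = 0.10). It was -0.24 in Refed_8h against Fast (adjusted p = 0.88) and 1.28 in Refed_8h against Refed_3h (SE 0.51, adjusted p = 0.16).

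**Figure D2:**
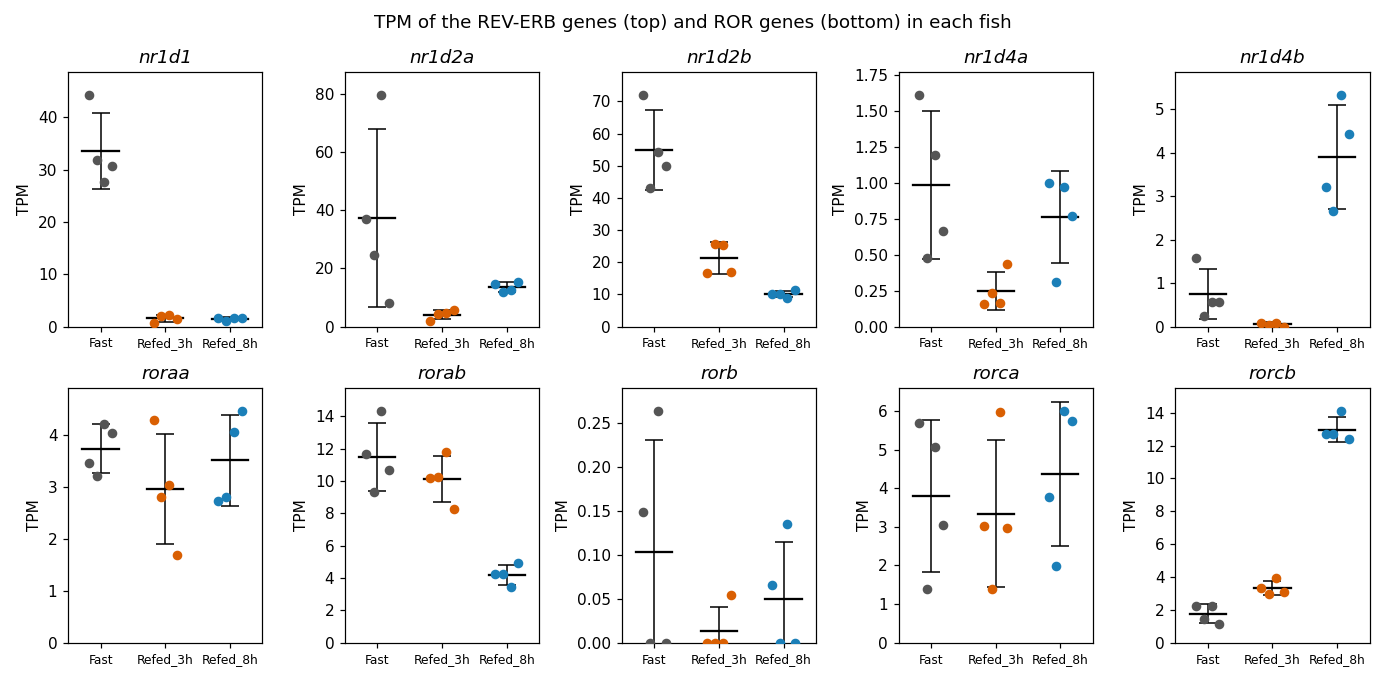
TPM of each of the 10 receptor genes by group, with each point 1 fish and each bar the mean and SD of 4 fish (linear axes that differ between genes, with SD bars ending at 0). nr1d1 falls at 3 h and stays low at 8 h, nr1d2b falls at both times, nr1d4b is highest at 8 h (2.67 to 5.33 TPM) and rorcb reaches 12.4 to 14.1 TPM at 8 h.

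rorcb (ENSDARG00000017780, chromosome 2, 49417900 to 49454451, plus strand), a copy of the gene for ROR gamma, was the one ROR gene that rose. Its TPM was 2.25, 1.43, 2.26 and 1.13 in the Fast fish, 3.34, 2.96, 3.96 and 3.09 in the Refed_3h fish, and 12.7, 12.7, 14.1 and 12.4 in the Refed_8h fish. No fish of any group overlapped another group. It rose by 1.29 on the log2 scale in Refed_3h against Fast (SE 0.20, adjusted p = 0.0032, 2.45-fold) and by 3.01 in Refed_8h against Fast (SE 0.20, adjusted p = 2.2e-06, 8.07-fold). Refed_8h was 3.30-fold above Refed_3h (adjusted p = 0.00031). The Refed_8h fish were close together, with a coefficient of variation of 5.80%, and 96.2% of the 4758 tested genes with a mean of at least 10 TPM in that group varied more. The rise at 3 h was under 2-fold on the log2(TPM + 1) scale (0.67), on the log2(TPM + 0.1) scale (0.93) and with the skin covariate (0.995, adjusted p = 0.041).

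rorab (ENSDARG00000001910, chromosome 7, 29538628 to 29625509, minus strand), a copy of the gene for ROR alpha, fell late. Its TPM was 11.7, 9.35, 14.3 and 10.7 in the Fast fish, 10.2, 10.2, 11.8 and 8.30 in the Refed_3h fish, and 4.25, 4.24, 3.43 and 4.95 in the Refed_8h fish. The first pair of groups overlapped, and every Refed_8h fish lay below every other fish. The log2 fold change was -1.34 in Refed_8h against Fast (SE 0.15, adjusted p = 0.00026, 2.53-fold lower) and -1.50 in Refed_8h against Refed_3h (SE 0.15, adjusted p = 0.00014, 2.83-fold lower). In Refed_3h against Fast it was 0.16 (SE 0.14, adjusted p = 0.52) from the counts and -0.16 on the log2(TPM + 1) scale.

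The remaining ROR genes gave no call. roraa (ENSDARG00000031768, chromosome 25, 33849647 to 33969717, plus strand), the other copy of ROR alpha, had 4.28, 2.80, 3.03 and 1.70 TPM in Refed_3h and 2.72, 2.81, 4.06 and 4.46 TPM in Refed_8h, against 3.46, 3.22, 4.21 and 4.05 TPM in Fast. Its log2 fold changes were -0.01 at 3 h and 0.02 at 8 h against Fast (SE 0.24 and adjusted p of 0.98 and 0.99). rorca (ENSDARG00000057231, chromosome 8, 18885108 to 18899427, minus strand), the other copy of ROR gamma, had 3.03, 1.40, 5.96 and 2.97 TPM in Refed_3h and 3.78, 1.99, 5.99 and 5.73 TPM in Refed_8h, against 5.68, 1.39, 5.06 and 3.05 TPM in Fast. Its log2 fold changes were 0.22 and 0.35 (SE 0.46, adjusted p of 0.81 and 0.82), and the groups of both genes overlapped. rorb (ENSDARG00000033498, chromosome 5, 25366677 to 25406807, minus strand), which in mammals acts in retina and brain, had 9 counts over 12 libraries and none in 7 of them. Its counts were 0, 0, 0 and 1 in Refed_3h and 1, 0, 2 and 0 in Refed_8h, against 2, 0, 3 and 0 in Fast, too few for a comparison.

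The paralogues of a pair thus had different values in the same fish. rorcb rose 8.07-fold at 8 h while rorca gave no call, rorab fell while roraa gave no call, and at 8 h nr1d4b was 5.91-fold above Fast while nr1d4a was not called. The difference between paralogues was not itself tested. How the authors' mapping placed reads that match more than 1 gene is not given in the sources used here, so values of paralogues carry that uncertainty. No member overlapped another gene of the table by position.

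In Refed_3h against Fast, 5 of the 9 tested receptors were called, against 2.07% of all tested genes. The 4 lower ones were REV-ERB genes (nr1d1, nr1d4b, nr1d2a and nr1d2b), against 1.39% of all genes called lower, and the higher one was rorcb, against 0.687%. Of these, nr1d4b was tested at 3 h only through its Refed_8h counts. In a fit of only Fast and Refed_3h, nr1d1, nr1d2b and rorcb were called, against 2.07% of the 16053 genes tested there. In Refed_8h against Fast, 5 of the 9 were called, against 0.985% of all genes: nr1d1, nr1d2b and rorab lower (0.609% of all genes) and nr1d4b and rorcb higher (0.376%). In Refed_8h against Refed_3h, 4 of the 9 were called, against 2.78% of all genes: nr1d4b and rorcb higher (1.70%) and nr1d2b and rorab lower (1.09%). These comparisons share groups and are not independent of each other. In each of them the place of nr1d4b among the tested genes relied on Refed_8h, the group where it is highest. Its calls and its lack of overlap are thus no support for a contrast with the shares of all genes. Groups did not overlap in scaled counts for 5 of the 9 receptors in each comparison, against 14.0%, 7.44% and 15.0% of all tested genes in the same order. With the skin covariate, 2 of the 9 receptors (nr1d1 and nr1d2b) were called at 3 h, against 0.669% of all genes in that fit, and 4 (all but nr1d4b of the 5) at 8 h, against 0.442%. Every refed fish lay below every Fast fish in the skin marker sum. That fit therefore cannot tell the part of skin from that of the groups in a comparison with Fast.

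**Figure D3:**
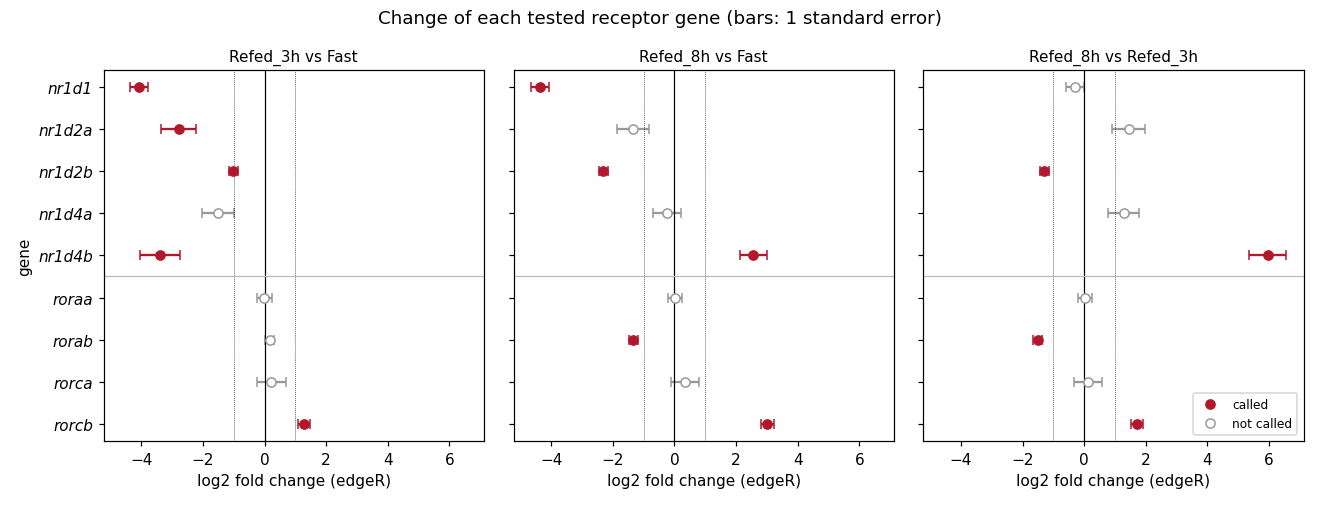
Log2 fold change and SE (edgeR) of the 9 tested receptors in each comparison, with filled symbols for called genes and open symbols for the rest. nr1d1 lies at -4.08 and -4.37 against Fast, nr1d4b at -3.39 at 3 h and 2.56 at 8 h, and rorcb at 1.29 and 3.01.

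The order of the levels followed these changes. In Fast, nr1d2b, nr1d2a and nr1d1 had the highest means (54.9, 37.4 and 33.6 TPM) and overlapped as neighbours. Next was rorab (11.5 TPM), which lay below every nr1d1 fish and above every rorca fish. rorab overlapped nr1d2a, which in Fast replicate 4 had 8.25 TPM against 10.7 TPM for rorab. rorca and roraa overlapped, roraa lay above rorcb, and rorcb, nr1d4a, nr1d4b and rorb each overlapped the next. In Refed_3h, nr1d2b (21.2 TPM) lay above rorab (10.1 TPM) and rorab above the rest in every fish. nr1d2a, rorca, rorcb, roraa and nr1d1 followed, each overlapping its neighbour, and nr1d4a lay below nr1d1 and above nr1d4b. In Refed_8h, nr1d2a and rorcb overlapped at the top (13.6 and 13.0 TPM), nr1d2b (10.1 TPM) lay below both, and rorca, rorab, nr1d4b and roraa overlapped between 4.37 and 3.51 TPM. nr1d1 (1.50 TPM) lay below those 4. Among all tested genes, 70.2% in Refed_3h and 76.8% in Refed_8h had a higher mean than nr1d1, against 11.0% in Fast, and 23.1% in Refed_8h had a higher mean than rorcb, against 74.8% in Fast.

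Clock genes of families with ROR elements in mammals were higher in several cases, mostly at 8 h. From these elements ROR proteins activate and REV-ERB proteins repress. Of 14 such clock genes listed, a BMAL2 gene among them, 13 were in the table and 11 were tested. The cryptochrome genes were split: cry1a and cry1b are in this list, and cry2, cry3a and cry3b in the list of E-box and D-box genes. Whether each zebrafish gene carries a ROR element was not tested. In Refed_3h against Fast 1 was called, against 2.07% of all tested genes, and with the skin covariate 0 were, against 0.669%. The called gene was nfil3-5, a copy of the bZIP repressor gene Nfil3, with a log2 fold change of 1.71 (adjusted p = 0.0050). The BMAL1 gene arntl1a was higher by less than 2-fold at 3 h and passed the adjusted p alone (0.65, adjusted p = 0.049). In Refed_8h against Fast 4 were called, all higher, against 0.376% of all genes called higher. They were nfil3-5 by 3.21 (adjusted p = 3.8e-05), arntl2, a BMAL2 gene, by 2.22 (0.014), nfil3 by 1.38 (0.0011) and arntl1a by 1.11 (0.0044). In Refed_8h against Refed_3h 4 were called, all higher, against 1.70% of all genes called higher. They were arntl2 by 2.35 (adjusted p = 0.0060), clocka, the gene of the partner of BMAL1, by 2.17 (0.011), nfil3-5 by 1.50 (0.0063) and nfil3 by 1.15 (0.0030). cry1a, a cryptochrome gene of the list named after its values were seen, went the other way and passed the adjusted p alone, with -0.90 in Refed_8h against Fast (adjusted p = 0.0018) and -0.78 in Refed_8h against Refed_3h (0.0034). nfil3-6, another copy of Nfil3, was also lower in Refed_8h against Fast but not called (-1.65, adjusted p = 0.14). The list's median log2 fold change was -0.01, 1.11 and 0.69 in the 3 comparisons, beside -0.01, 0.0034 and 0.01 over all tested genes. nfil3-5 had a mean TPM of 4.36 in Fast, 10.7 in Refed_3h and 36.3 in Refed_8h, and arntl1a of 5.81, 7.08 and 11.7. The levels of arntl2 (0.681, 0.482 and 2.85 TPM) and clocka (0.488, 0.156 and 0.855 TPM) were low.

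The other arm of the clock, whose genes are driven through E-boxes and D-boxes, was mostly lower. Of 17 genes listed (period, cryptochrome, CIART, BHLHE40/41 and PAR bZIP genes), 16 were tested. In Refed_3h against Fast 10 were called lower and 2 higher, against 1.39% and 0.687% of all tested genes. The largest fall was that of per1a, a period gene that represses CLOCK and BMAL1 (-4.61, adjusted p = 4.6e-05). Next were dbpb, a D-box activator gene (-3.18, adjusted p = 4.8e-05), and ciarta, a CIART gene (-2.97, adjusted p = 9.1e-05). cry3b, a cryptochrome gene, rose by 2.60 (adjusted p = 7.1e-06). In Refed_8h against Fast again 10 were called lower and 2 higher, against 0.609% and 0.376% of all genes. In Refed_8h against Refed_3h 5 were called, all lower, against 1.09% of all genes called lower. The list's median log2 fold change was -1.56, -2.41 and -0.32 in the 3 comparisons, beside -0.01, 0.0034 and 0.01 over all tested genes. Against Fast, nr1d1 had log2 fold changes of -4.08 at 3 h and -4.37 at 8 h and per1a of -4.61 and -4.76. At 8 h against Fast the largest fall of the list was that of ciarta (-5.63, adjusted p = 8.4e-07), and per3 had -4.40 and per1b -4.19, both period genes.

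**Figure D4:**
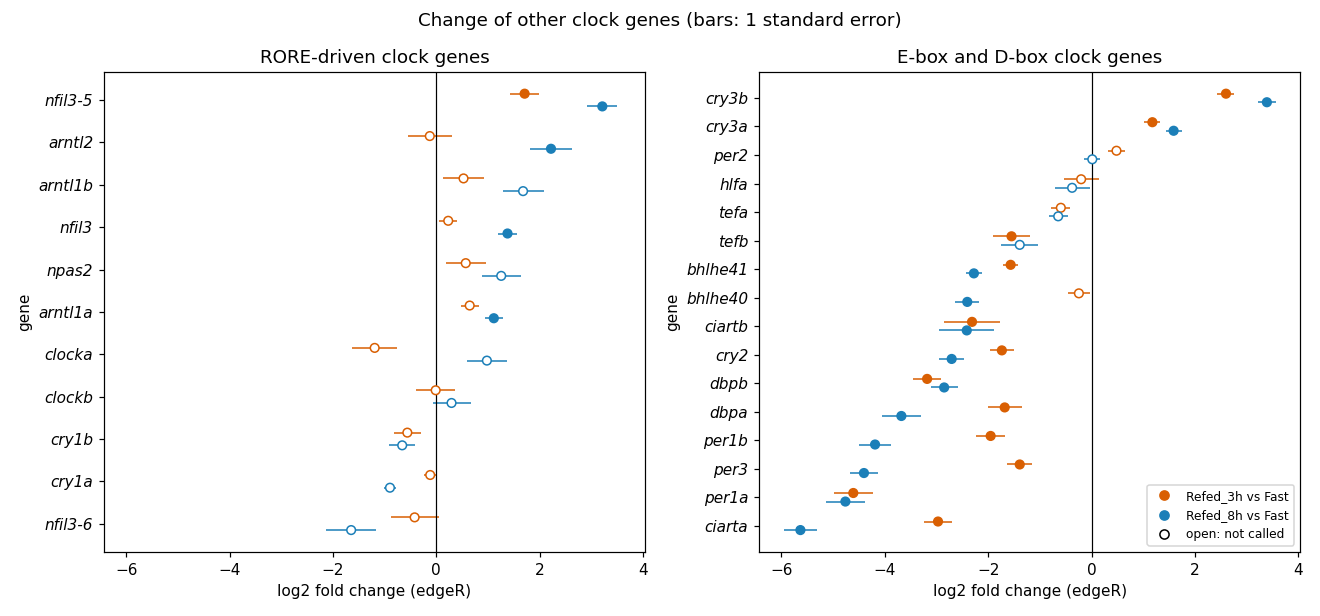
Log2 fold change (edgeR) of the tested clock genes of families with ROR elements in mammals and of the E-box and D-box clock genes, for each comparison with Fast, with filled symbols for called genes. The called genes of the first list are all above 0, and those of the second are mostly below 0, with cry3b at 2.60 in Refed_3h against Fast among the exceptions.

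The genes of the proteins that work with the receptors gave few differences. Of 14 corepressor and coactivator genes (NCoR and HDAC3 complex, NCOA and PGC1 genes), all tested, edgeR and DESeq2 called 0 in each comparison. Over all tested genes, edgeR called 2.07%, 0.985% and 2.78%. Of the 14, 3, 1 and 1 had an unadjusted p under 0.05 in edgeR. Their median log2 fold change was -0.16 in Refed_3h against Fast, -0.0067 in Refed_8h against Fast and 0.14 in Refed_8h against Refed_3h. ncoa3, a coactivator gene named after its value was seen, passed the adjusted p alone at 3 h (-0.54, adjusted p = 0.020). Of 10 heme synthesis genes, which make the ligand of REV-ERB, 9 were tested and both tools called 0 in each comparison, with 3, 0 and 2 at an unadjusted p under 0.05. Their medians were 0.36, 0.11 and -0.27. cpox, a late enzyme of the pathway named after its value was seen, passed the adjusted p alone at 3 h (0.73, adjusted p = 0.021).

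Of 12 genes of the AMPK, SIRT1 and autophagy axis that are tied to Rev-erb alpha in mouse muscle, all were tested. In Refed_3h against Fast 1 was called, against 2.07% of all tested genes, and DESeq2 called 3, against 3.50%. The gene called by edgeR was namptb, an enzyme gene of NAD synthesis (-1.11, adjusted p = 0.026). namptb was not called with the skin covariate or without any 1 of Fast replicates 1 and 4 and Refed_3h replicates 1, 2 and 4. In Refed_8h against Fast both tools called 0, with 1 at an unadjusted p under 0.05, and edgeR called 0.985% of all genes. In Refed_8h against Refed_3h, ulk1a, a kinase gene that starts autophagy (1.60, adjusted p = 0.014), and namptb (1.18, adjusted p = 0.016) were called higher, against 1.70% of all genes. In that comparison 1 of the list was called without Refed_3h replicate 1 or Refed_8h replicate 1. An unadjusted p under 0.05 in edgeR was reached by 5 of the 12 in Refed_3h against Fast and by 6 in Refed_8h against Refed_3h. The medians were -0.26, -0.05 and 0.17.

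The genes whose levels ran most like a receptor's were ranked by Pearson's r of log2 CPM over the 12 libraries, among 12088 tested genes with a mean of at least 1 TPM. This pool leaves out genes with clone names, such as si: or zgc:. The libraries fall into 3 groups that all these genes share, so r is a description. For nr1d1 the closest genes were per1a (r = 0.974), dbpb (0.973) and plekha6 (0.957), and the most opposite was cry3b (-0.956). For nr1d2b they were cipcb (0.987), cavin2b (0.985) and per1b (0.979), and the most opposite was the receptor rorcb (-0.959). For rorcb they were nfil3-5 (0.984), fus (0.963) and ctdsp1 (0.947), with cipcb most opposite (-0.963). For rorab they were cfap298 (0.957), bhlhe40 (0.948) and coq10b (0.945), with mxd3 most opposite (-0.957). For nr1d4b they were spsb3a (0.965), cdkn1a (0.955) and als2b (0.950), with smu1b most opposite (-0.962), and for nr1d2a myzap (0.922), ankha (0.914) and tln1 (0.912), with mapre1a most opposite (-0.934).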

How the data were processed

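Skeletal muscle of 12 zebrafish, 4 in each of 3 groups, was measured by poly(A) RNA-seq with paired-end reads. The authors mapped the reads to GRCz11 with CLC Genomics Workbench and deposited 1 table with whole-number counts per gene. The deposited table also holds the authors' TPM, relative to transcript length and summing to the same total in each library. Neither the annotation release nor the strand setting nor the treatment of reads with several matches is given in the sources used here. Not used were 24 further columns of values per fish (RPKM and rescaled CPM) and 18 columns of the authors' own comparisons (fold changes, p-values and FDR).

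Counts were fitted in R 4.3.3 with edgeR 4.0.16 (filterByExpr, TMM with factors of 0.790 to 1.21, robust quasi-likelihood, 1 model of 3 groups). The biological coefficient of variation was 30.6%. SE was obtained by dividing the log2 fold change by the root of its F statistic. Every library passed a check for repeats (lowest chi-square per gene over library pairs 31.2), and the tests were checked on simulated data. TPM was tested with limma 3.58.1 on log2(TPM + 1) and log2(TPM + 0.1), for genes with a mean of at least 0.5 TPM and with no such filter. Other alternatives were DESeq2 1.42.0, RLE size factors, no count filter, no fold threshold, a fit of only the groups compared, a replicate block, a skin marker covariate and each library left out. Chosen after seeing the data was a term that sets replicates 1 and 2 against 3 and 4. Replicates are separate fish.

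All 10 receptors were named. Per partner list and comparison up to 4 called genes of largest change were named. Per receptor the 3 most alike genes and the most opposite one were named, using log2 CPM with a prior count of 2. The receptors and lists were chosen with earlier results of these data known. No sequences were used here.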

Additional observations from a re-analysis of the deposited data

Results flagged for a closer look

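Within groups, 36 sets of 4 fish were checked for a fish far from the others by Dixon's ratio, which chance flags in about 1 of 20 sets, and 2 sets had one. rorcb was 14.1 TPM in Refed_8h replicate 3, against 12.4 to 12.7 TPM in the other Refed_8h fish (gap of 0.837 of the range). rorb was 0.0546 TPM in Refed_3h replicate 4, from 1 count, and was listed at 0 in the other Refed_3h fish.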

How the results depend on the processing

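Of 591 alternative values of the receptors, 535 kept their direction and call, 19 lost a call, 3 gained one and 34 changed sign. All sign changes were in differences that had no call. At 3 h against Fast, 347 genes were called (115 higher and 232 lower), and 5 receptors. DESeq2 called 586 genes, no fold threshold 821, limma on log2(TPM + 0.1) 737, and the skin covariate 112, with 179 to 376 when a library was left out. Receptors called were 3 with only those groups, 3 on log2(TPM + 1), 3 with no TPM filter and 2 with the skin covariate, and 3 to 5 with a library left out. nr1d4b and nr1d4a did not pass the count filter with only those groups, so the absence of nr1d4b there is not among the 19 lost calls. At 8 h against Fast, 165 genes were called, 327 with DESeq2, 74 with the skin covariate and 124 to 175 with a library left out. Between 8 h and 3 h, 466 genes were called (284 higher and 182 lower), 719 with DESeq2, 1074 with no fold threshold, 240 on log2(TPM + 1), 197 with no TPM filter and 280 to 507 with a library left out. Single fish moved these counts by more than 1.5 times without Fast replicate 1 (179), Refed_3h replicate 1 (181) or Refed_3h replicate 4 (226) at 3 h, and without Refed_8h replicate 4 between the refed groups (280). On log2(TPM + 1) the median log2 fold change over the genes was -0.26 at 3 h and 0.18 between the refed groups (-0.01 and 0.01 from the counts), where 22 genes were called higher and 353 lower, and 194 higher and 46 lower.

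The labels do not say that a replicate number marks a shared batch, and fish were not taken as pairs because some correlations at equal numbers were under 0.1 (-0.188 to 0.270). Those of numbers 2 and 3 were 0.113 to 0.270, the own number was the closest of 4 in 13 of 24 cases, and the second principal component put replicates 1 and 2 above 3 and 4 in every group, a hint from the data and not from the design. With the replicate block, 368, 179 and 499 genes and 4, 5 and 4 receptors were called, and nr1d2a at 3 h was -2.65 (adjusted p = 0.054). The term for replicates 1 and 2 against 3 and 4 gave 424, 212 and 560 genes.

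Signs changed as follows. At 3 h, rorab was -0.16 on log2(TPM + 1) with or without the filter and -0.18 on log2(TPM + 0.1). rorca was -0.14, -0.17 and, with the skin covariate, -0.37. roraa was 0.013 with the skin covariate and 0.011 with the added term. At 8 h against Fast, roraa was -0.084 and -0.11 on the TPM scales and rorca -0.27 with the skin covariate. Between the refed groups, nr1d1 was 0.0089 and 0.066 on the TPM scales and roraa -0.00092 with the added term. Leaving out a library moved roraa between -0.25 and 0.14 and rorca between -0.15 and 0.50 at 3 h. It moved nr1d4a between -0.43 and 0.0092 and roraa between -0.10 and 0.17 at 8 h. Between the refed groups it moved roraa between -0.12 and 0.27 and rorca between -0.14 and 0.50. The cause was not tested. Low counts limit nr1d4a, nr1d4b and rorb.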

Other observations

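rorca varied widely between fish of a group, with a coefficient of variation of 51.6% in Fast, 57.0% in Refed_3h and 42.7% in Refed_8h. Replicate 2 was the lowest fish of each group, with 1.39, 1.40 and 1.99 TPM. Pigment cell markers (6 of 6 in the table) had a TPM sum of 24.3 ± 6.97 in Fast, 12.3 ± 3.37 in Refed_3h and 18.3 ± 4.62 in Refed_8h (mean ± SD, n = 4 each), an order that nr1d2a and nr1d4a also have, and their part in those values was not tested.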
